A study of Homo sapiens with 12 samples.

Results

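The genes described here are the 5 subunits of the transcription factor NF-κB (NFKB1, NFKB2, RELA, RELB and REL) and 4 genes of its feedback loop (NFKBIA, TNFAIP3, BIRC3 and TRAF1). They were chosen by name, and all 9 of 9 had a row in the table of 17589 genes. The study asked how receptors built on CD16, the Fc receptor through which natural killer (NK) cells recognise antibody-coated targets, change an NK cell line in the absence of stimulation. RNA was sequenced from YT cells, a human NK-like line without CD16, in 4 groups of 3 libraries each. CTRL cells received a lentivirus with eGFP alone. The hnCD16 cells received the high-affinity, non-cleavable form of CD16. FR1 cells received hnCD16 fused to the signalling domains of 2B4, DAP10 and CD3ζ, and FR2 cells received hnCD16 fused to those of DAP10 and CD3ζ, without 2B4. The receptors were driven by the constitutive hEF1A promoter, every group passed through lentiviral infection, and eGFP-positive cells were sorted and expanded as bulk populations. The sources describe 1 transduced population per construct, so construct and population cannot be told apart. The paper states in general that in vitro work was repeated in 3 independent experiments. It does not say whether the 3 libraries of a group came from separate cultures. The p-values below therefore measure the spread between libraries, which may be technical.

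NF-κB dimers rest in the cytoplasm, bound by IκB proteins, until the IKK complex marks the inhibitor for destruction. In the canonical arm RELA, REL and NFKB1 products enter the nucleus, while in the noncanonical arm the kinase NIK (MAP3K14) triggers the processing of the NFKB2 precursor and releases dimers with RELB. Many products of the response act back on it, and in NK cells the pathway is used by activating receptors, cytokine receptors and receptors of the TNF family.

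Sequences upstream of the members are shown because the feedback genes are known for κB sites in their promoters. The 250 bases before each RefSeq start (build GRCh38.p14) were searched on both strands for the 10-base κB consensus. Of the 9 members, all but RELB, 8 in number, had a promoter in the sequence table. Of those 8, 6 (75%) held at least 1 match, whereas 11.8% of all 27305 genes with a promoter did. Genes known for such sites were among those chosen, so this contrast is a description and no test. By promoter, 7 of 14 member windows and 9.96% of all 35116 windows held a match. No match was found in the windows of RELA and TRAF1. Capitals mark the matches, and a match describes letters and not a bound site. The whole window is given for NFKBIA and BIRC3, which moved in the same direction, and 30 bases around a match for TNFAIP3, which moved in the opposite one, and for 3 subunits.
NFKBIA promoter (chr14:35404750-35404999, minus strand): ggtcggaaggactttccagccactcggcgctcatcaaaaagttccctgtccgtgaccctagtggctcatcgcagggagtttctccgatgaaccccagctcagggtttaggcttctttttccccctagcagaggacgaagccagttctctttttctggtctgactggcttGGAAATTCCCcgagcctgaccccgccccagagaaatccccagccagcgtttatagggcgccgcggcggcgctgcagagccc
BIRC3 promoter (chr11:102317234-102317483, plus strand): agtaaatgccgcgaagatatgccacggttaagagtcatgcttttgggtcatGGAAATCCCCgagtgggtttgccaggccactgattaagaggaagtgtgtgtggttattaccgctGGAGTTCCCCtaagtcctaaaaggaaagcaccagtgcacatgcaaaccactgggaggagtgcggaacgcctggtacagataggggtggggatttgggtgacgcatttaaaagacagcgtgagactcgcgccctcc
TNFAIP3 distal match (chr6:137867182-137867211, plus strand): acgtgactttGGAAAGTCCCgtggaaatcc
TNFAIP3 proximal match (chr6:137867194-137867223, plus strand): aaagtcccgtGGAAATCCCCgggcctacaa
NFKB2 match (chr10:102394461-102394490, plus strand): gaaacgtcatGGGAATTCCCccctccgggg
NFKB2 match of a downstream promoter (chr10:102395674-102395703, plus strand): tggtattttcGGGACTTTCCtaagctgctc
NFKB1 match (chr4:102501300-102501329, plus strand): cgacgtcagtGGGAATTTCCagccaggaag
REL match (chr2:60881517-60881546, plus strand): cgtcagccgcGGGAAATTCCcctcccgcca
In NFKB2 and in REL, a match on one strand overlapped a match on the other by all but 1 base, so these runs hold fewer separate sites than matches. The matches of BIRC3 began 199 and 135 bases before the start, and those of TNFAIP3 67 and 55 bases before it. The NFKBIA match began 81 bases before its start. These distances run from RefSeq starts, while the gene spans below are from GENCODE and can begin earlier. The matches shown for NFKB2 and REL lie within those spans. On GRCh38 the annotation placed NFKBIA at chr14:35401079-35404749 on the minus strand, TNFAIP3 at chr6:137867214-137883314, BIRC3 at chr11:102317484-102339403 and TRAF1 at chr9:120902393-120929173 on the minus strand. NFKB1 lies at chr4:102501330-102617302, NFKB2 at chr10:102394110-102402524, RELA at chr11:65653599-65663090 on the minus strand, RELB at chr19:45001461-45038192 and REL at chr2:60881491-60931612.

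The libraries held 17714566 to 18729019 expected counts. FCGR3A, which encodes CD16a and whose ectodomain the receptors carry, had 0 counts in every CTRL library, which allows up to 3 counts per library, and the ranges were 453 to 480 (hnCD16), 559 to 567 (FR1) and 1012 to 1132 (FR2). The labelled NK identity did not hold equally in the groups. Of 13 NK markers, 5 reached 1 CPM in all libraries of CTRL and of hnCD16, and 10 in FR1 and in FR2, with summed levels of 43.2 to 48.2, 45.1 to 47.8, 4190 to 4400 and 4050 to 4140 CPM. GZMB, the gene of the protease granzyme B, was the most abundant of them in the fusion receptor libraries, with 44542 to 49153 counts. The markers did not all move together. NCR3 had 101 to 109 counts in CTRL and hnCD16 and 0 to 17 in FR1 and FR2, and KLRD1 had 202 to 267 and 225 to 282. TYROBP was at 0 in all FR1 and FR2 libraries, and NCAM1, the CD56 gene, had 0 to 4 counts in CTRL and 0 to 2 in hnCD16. Of 9 T cell markers 7 were in the table, with summed levels of 659 to 773, 743 to 800, 129 to 133 and 157 to 169 CPM in the same order. CD3D had 7757 to 9903 counts in CTRL and hnCD16 and 0 to 3 in FR1 and FR2, whereas CD28 went the other way, from 51 to 74 counts to between 1572 and 2258. B cell markers summed to 11.1 to 14.7, 9.19 to 13.4, 38.3 to 42.4 and 45.3 to 47.4 CPM, with CD79B at 0 in FR2 and CD22 at 0 in CTRL, hnCD16 and FR2. PAX5, a transcription factor of B cells, had 656 to 828 counts in the fusion receptor libraries and 0 to 5 in the rest. Monocyte markers summed to at most 7.98 CPM. The first principal component, with 95.5% of the variance, separated these pairs of groups. Every comparison of a fusion receptor group with CTRL or hnCD16 crosses this divide, and the part of these differences in the results was not tested. Only hnCD16 against CTRL and FR1 against FR2 compare groups on the same side of the divide. Within these pairs some markers, such as KLRD1, overlapped, and others did not. GNLY had 490 to 547 counts in FR1 and 154 to 177 in FR2. CD4 had 150 to 186 in CTRL and 78 to 114 in hnCD16. In bulk RNA, fewer cells of a type and less RNA per cell cannot be told apart.

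The members were higher in both fusion receptor groups with the exception of TNFAIP3, which was lower, and REL, whose libraries overlapped between groups. Levels below are CPM, the counts of a library divided by its TMM-scaled size. A gene was called when its absolute log2 fold change was at least 1 and its adjusted p at most 0.05 by edgeR's quasi-likelihood test over 13657 genes. In FR1 against hnCD16, 6 of 9 members were called, 5 higher (NFKB2, RELB, NFKBIA, BIRC3 and TRAF1) and 1 lower (TNFAIP3), where 38.3% of all genes tested were called, 18.7% higher and 19.6% lower. In FR2 against hnCD16, these 6 were called again, against 39.5% of all genes, 19.6% higher and 19.8% lower. For the 9 members the median log2 fold change was 1.16 (FR1) and 1.60 (FR2), while over all genes it was -0.01 and -0.03. Against CTRL, the same 6 members were called in both groups and in the same directions. The background was 38% of all genes called in FR1 against CTRL (18.3% higher, 19.8% lower) and 38.2% in FR2 against CTRL (18.7% higher, 19.6% lower). The comparisons share libraries and are not independent.

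**Figure D1:**
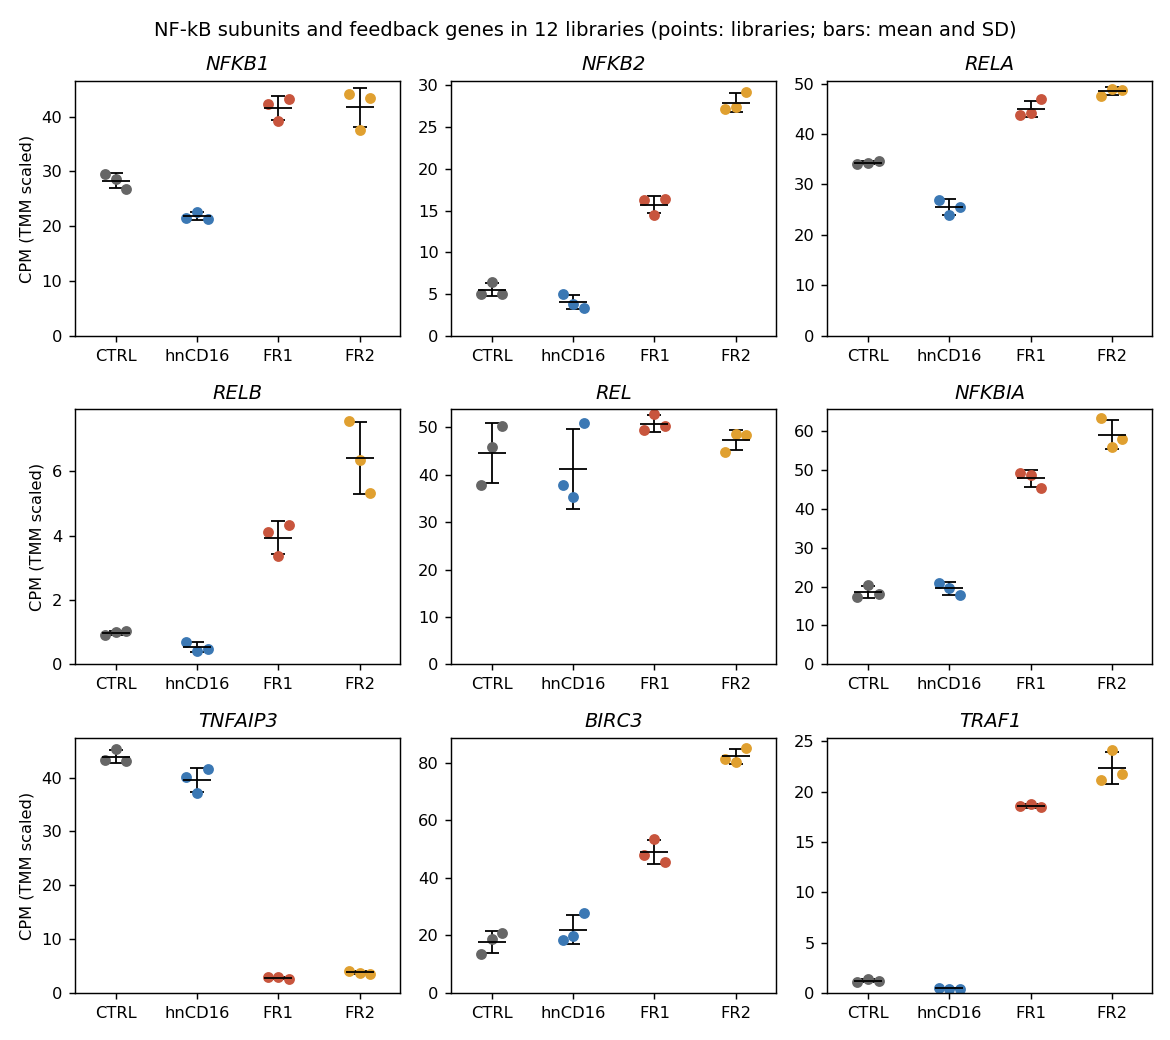
CPM of the 9 members in 12 libraries, by group, on linear axes that start at 0. Points are libraries, and bars give the mean and SD of 3. TNFAIP3 sits between 2.63 and 4.03 CPM in FR1 and FR2 and above 37 CPM in CTRL and hnCD16. TRAF1 is higher in FR1 and FR2 than in CTRL and hnCD16.

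Among the subunits, the noncanonical pair moved farthest. NFKB2, the gene of the p100 precursor and its product p52, stood at 5.06, 6.45 and 5.08 CPM in CTRL, 5.01, 3.78 and 3.40 in hnCD16, 16.3, 14.5 and 16.4 with FR1 and 27.1, 27.4 and 29.2 with FR2. FR1 and FR2 lay above CTRL and hnCD16 in every library and did not overlap each other. The log2 fold change against hnCD16 was 1.95 ± 0.12 (SE, n = 3 per group; adjusted p = 8.77e-11 by edgeR) in FR1 and 2.78 ± 0.12 (1.97e-13) in FR2. RELB, whose protein pairs with p52, stood at 0.920, 1.001 and 1.04 CPM in CTRL, 0.707, 0.432 and 0.478 in hnCD16, 4.11, 3.35 and 4.34 with FR1 and 7.55, 6.34 and 5.32 with FR2. The groups were ordered without overlap, hnCD16 lowest and FR2 highest, although the hnCD16 values rest on 8 to 13 counts. Its log2 fold change against hnCD16 was 2.85 ± 0.24 (adjusted p = 4.87e-09, edgeR) in FR1 and 3.56 ± 0.22 (6.35e-11) in FR2. With limma on log2(TPM + 1), where the pseudocount understates the change of low genes, RELB came to 1.5 and 2.03.

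The canonical subunits NFKB1 and RELA were higher by less than 2-fold. NFKB1, the gene of p105 and p50, had 29.5, 28.7 and 26.8 CPM in CTRL, 21.5, 22.6 and 21.3 in hnCD16, 42.2, 39.2 and 43.3 with FR1 and 44.1, 37.6 and 43.4 with FR2. RELA, the gene of the transactivating subunit p65, had 34.1, 34.3 and 34.6 CPM in CTRL, 27.0, 23.9 and 25.6 in hnCD16, 43.9, 44.2 and 46.8 with FR1 and 47.6, 49.0 and 48.8 with FR2. In both genes hnCD16 was lowest, CTRL intermediate and the fusion receptor groups highest, with no overlap between these 3 levels. The log2 fold changes against hnCD16 were 0.93 ± 0.07 in FR1 and 0.94 ± 0.07 in FR2 for NFKB1, and 0.82 ± 0.06 and 0.93 ± 0.06 for RELA. All 4 passed the adjusted p, the largest being 1.04e-09 (edgeR), and none reached the fold threshold. Against CTRL these differences were smaller, from 0.39 for RELA in FR1 to 0.56 for NFKB1 in FR2, and they depended on the scaling. RELA in FR1 against CTRL was 0.17 with limma on log2(TPM + 1) and 0.20 by edgeR with library size alone, and NFKB1 was 0.32 in both groups with limma.

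REL, the gene of c-Rel, was the subunit whose groups overlapped across the divide. It stood at 37.8, 45.8 and 50.3 CPM in CTRL, 37.8, 35.3 and 51.0 in hnCD16, 49.4, 52.8 and 50.2 with FR1 and 44.8, 48.6 and 48.3 with FR2. The CTRL and hnCD16 libraries spread widely and reached the level of the fusion receptor libraries. REL was higher in FR1 than in hnCD16 by 0.30 ± 0.11 on the log2 scale (adjusted p = 0.0227, edgeR). This p was not kept under several other settings, with 0.166 by limma on log2(TPM + 1), 0.168 on log2(TPM + 0.1) and 0.139 by edgeR with library size alone. It was 0.091 without the first hnCD16 library, 0.137 without the second and 0.0713 without the second FR1 library (edgeR), and leaving out 1 library moved the difference between 0.20 and 0.48. The difference of FR2 from hnCD16 was 0.19, with a 95% confidence interval of -0.05 to 0.43 (adjusted p = 0.127, edgeR). A replicate block gave 0.20 (0.0406), and without the third hnCD16 library, the highest of its group, it was 0.37 (0.00118, edgeR), in a range of 0.09 to 0.37 when 1 library was left out.

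The make-up of the subunit transcripts differed accordingly. TPM, which divides by transcript length, allows levels of different genes to be compared. The 5 subunits summed to 54.5 ± 3.17 TPM in CTRL (SD, n = 3), 38.1 ± 2.69 in hnCD16, 69.1 ± 3.10 with FR1 and 79.8 ± 2.17 with FR2. NFKB2 and RELB together made up 8.13 ± 0.70% of this sum in CTRL, 7.30 ± 1.42% in hnCD16, 17.1 ± 1.03% with FR1 and 25.7 ± 0.49% with FR2. No fusion receptor library came below 16%, and no CTRL or hnCD16 library above 8.94%. RELA was the most abundant subunit, at 50.4, 48.5, 44.9 and 42.0% of the sum in the same order. REL took 14.5 ± 1.87% (CTRL), 17.2 ± 2.93% (hnCD16), 11.2 ± 0.73% (FR1) and 9.06 ± 0.48% (FR2). The ratio of NFKB2 to NFKB1 TPM was 0.240 ± 0.029 in CTRL, 0.228 ± 0.048 in hnCD16, 0.472 ± 0.017 with FR1 and 0.838 ± 0.071 with FR2. These shares are descriptions, since an exact permutation test of 3 against 3 libraries cannot go below p = 0.1.

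The feedback genes split, with 3 higher and 1 lower. NFKBIA, the gene of IκBα, the inhibitor that recaptures nuclear NF-κB, had 17.2, 20.3 and 18.2 CPM in CTRL, 21.0, 19.7 and 17.8 in hnCD16, 49.2, 48.7 and 45.3 with FR1 and 63.1, 55.8 and 57.8 with FR2. CTRL and hnCD16 overlapped, and FR1 and FR2 lay above both and apart from each other. The log2 fold change against hnCD16 was 1.29 ± 0.08 (adjusted p = 2.56e-11, edgeR) in FR1 and 1.60 ± 0.07 (9.41e-13) in FR2. TNFAIP3, the gene of A20, the ubiquitin-editing enzyme that shuts off signalling to IKK, had 43.2, 45.2 and 43.1 CPM in CTRL, 40.0, 37.1 and 41.6 in hnCD16, 2.95, 2.89 and 2.63 with FR1 and 4.03, 3.79 and 3.60 with FR2. Every fusion receptor library was thus lower than every other library. TNFAIP3 was 14-fold lower in FR1 than in hnCD16 (log2 fold change -3.81 ± 0.09, adjusted p = 2.82e-17, edgeR) and 10.4-fold lower in FR2 (-3.37 ± 0.08, 6.57e-17). The ratio of NFKBIA to TNFAIP3 TPM was 1.39 ± 0.08 in CTRL and 1.64 ± 0.19 in hnCD16, against 54.8 ± 4.70 in FR1 and 48.8 ± 2.002 with FR2.

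BIRC3 and TRAF1 encode cIAP2, a ubiquitin ligase of TNF receptor complexes that also restrains NIK, and an adaptor that recruits it. BIRC3 stood at 13.4, 18.7 and 20.8 CPM in CTRL, 18.5, 19.7 and 27.7 in hnCD16, 47.8, 53.5 and 45.6 with FR1 and 81.4, 80.1 and 85.0 with FR2. FR2 was highest in every library, FR1 intermediate, and CTRL and hnCD16 overlapped. The log2 fold change against hnCD16 was 1.16 ± 0.13 (adjusted p = 3.36e-07, edgeR) in FR1, and for FR2 it was 1.90 ± 0.13 (2.40e-10). With limma on log2(TPM + 1), BIRC3 came to 0.93 in FR1 against hnCD16, under the fold threshold. TRAF1 stood at 1.07, 1.40 and 1.19 CPM in CTRL, 0.490, 0.432 and 0.425 in hnCD16, 18.6, 18.8 and 18.5 with FR1 and 21.15, 24.2 and 21.8 with FR2. It had the largest rise of the members, and the hnCD16 libraries, with 8 to 9 counts each, were lowest. TRAF1 was 40.9-fold higher in FR1 than in hnCD16 (log2 fold change 5.35 ± 0.14, adjusted p = 3.00e-16, edgeR) and 49.1-fold higher in FR2 (5.62 ± 0.14, 9.53e-17). On log2(TPM + 1) with limma these differences were 2.81 and 3.05. The ratio of BIRC3 to TRAF1 TPM was 9.28 ± 1.73 in CTRL, 32.8 ± 9.78 in hnCD16, 1.66 ± 0.12 with FR1 and 2.35 ± 0.21 with FR2.

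**Figure D2:**
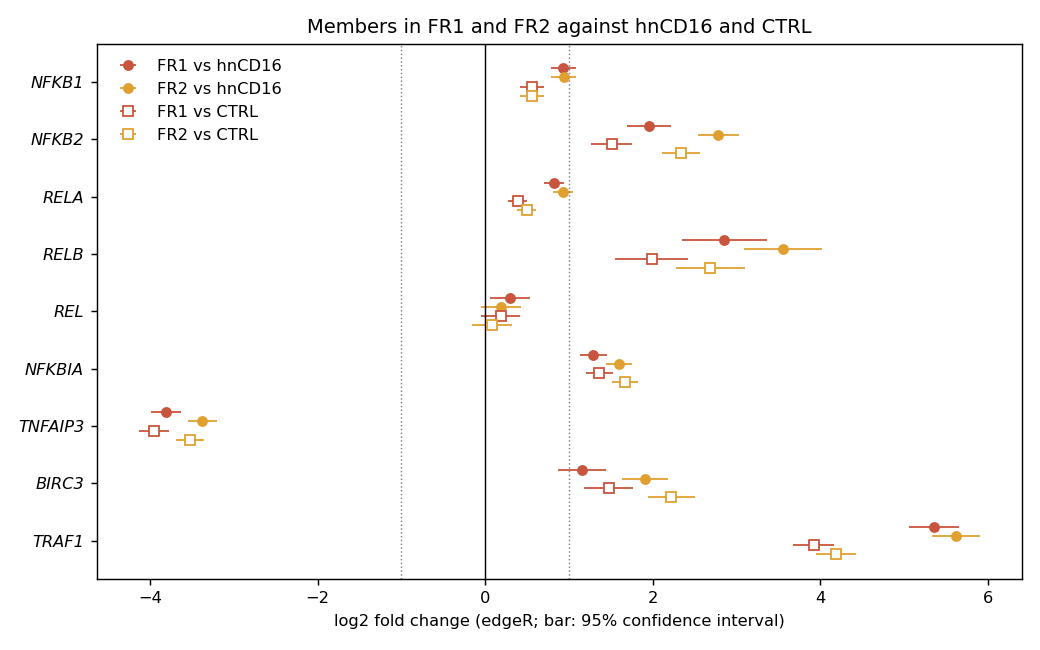
Log2 fold change of each member in FR1 and FR2 against hnCD16 (filled circles) and CTRL (open squares), with 95% confidence intervals from edgeR. Dotted lines mark the fold threshold of 1. TRAF1 lies farthest to the right, at 5.35 and 5.62 against hnCD16, TNFAIP3 to the left, at -3.81 and -3.37, and REL near 0.

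Against CTRL, which lacks a CD16 receptor, the called members kept their directions with other sizes. TRAF1 was higher by 3.92 ± 0.12 (SE, log2 scale) in FR1 and 4.18 ± 0.11 in FR2. NFKB2 was higher by 1.51 ± 0.12 and 2.33 ± 0.11, and RELB by 1.99 ± 0.21 and 2.69 ± 0.19. NFKBIA was higher by 1.36 ± 0.08 and 1.67 ± 0.07, and BIRC3 by 1.47 ± 0.14 and 2.22 ± 0.13. TNFAIP3 was 15.5-fold lower in FR1 and 11.5-fold lower in FR2. The largest adjusted p among these 12 values was 9.81e-08, for RELB in FR1 (edgeR). REL differed from CTRL by 0.19 (95% interval -0.05 to 0.42) in FR1 and by 0.08 (-0.15 to 0.32) in FR2.

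By level per length, NFKBIA (24.1 ± 2.59 TPM) and RELA (27.4 ± 1.31 TPM) led in CTRL, where their libraries overlapped. NFKBIA led in the other groups, with 22.8 ± 1.03 TPM (hnCD16), 53.1 ± 1.67 (FR1) and 66.2 ± 5.07 (FR2), with RELA next and no overlap. TNFAIP3 ranked 3 of 9 in CTRL (17.3 ± 0.91 TPM) and hnCD16 (13.98 ± 1.14 TPM) and 9 of 9 in FR1 (0.977 ± 0.111 TPM) and FR2 (1.36 ± 0.07 TPM). TRAF1 was last in CTRL (0.563 ± 0.090 TPM) and hnCD16 (0.183 ± 0.006 TPM) and had 7.28 ± 0.09 TPM (FR1) and 8.83 ± 0.48 TPM (FR2). Neighbours whose ranges overlapped were also REL with BIRC3 in CTRL and hnCD16, BIRC3 with NFKB2 in CTRL and BIRC3 with NFKB1 in FR2.

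The pair CTRL and hnCD16 differed in fewer genes. In hnCD16 against CTRL, 1 of 9 members was called, TRAF1, which was lower by 1.43 ± 0.24 on the log2 scale (adjusted p = 0.000229, edgeR), where 0.527% of all genes were called. Its counts were low, from 21 to 28 in CTRL and from 8 to 9 in hnCD16, and on log2(TPM + 1) with limma the difference was -0.40, under the fold threshold. At any fold, 6 of 9 members passed the adjusted p and all 6 were lower in hnCD16, where 21.4% of all genes passed in that direction. The other 5 were NFKB1 (-0.38), NFKB2 (-0.45), RELA (-0.43), RELB (-0.87) and TNFAIP3 (-0.15), and each was lower in every hnCD16 library than in every CTRL library. The median of the 9 members was -0.38, and that of all genes -0.01. Adjusted p ranged from 4.28e-05 for RELA to 0.0441 for TNFAIP3 (edgeR). NFKBIA, BIRC3 and REL overlapped between the groups, with differences of 0.07 (95% interval -0.10 to 0.24), 0.32 (0.01 to 0.62, adjusted p = 0.0915 by edgeR) and -0.11 (-0.35 to 0.13). The BIRC3 and REL differences rested on single libraries, since leaving out 1 gave 0.11 (without the third hnCD16 library) to 0.44 (without the third CTRL library) for BIRC3 and -0.29 (without the third hnCD16 library) to -0.01 (without the second) for REL. The adjusted p of BIRC3 by edgeR was 0.0338 without the third CTRL library, 0.033 without the first hnCD16 library and 0.041 with a replicate block, and that of REL was 0.0172 without the third hnCD16 library. Scaling by library size alone moved the median of all genes by -0.11 in this comparison, and limma on log2(TPM + 0.1) by -0.15, about as much as the TNFAIP3 difference. Without the first hnCD16 library RELB reached -1.11 and 2 members were called.

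FR1 and FR2, whose constructs differ by the 2B4 domain, were separated by smaller steps. Their FCGR3A levels also differed, at 32.4 ± 0.435 CPM in FR1 and 61.3 ± 3.15 CPM in FR2 (SD). The part of either difference in the values below was not tested. No member was called in FR1 against FR2 by edgeR, DESeq2 or limma, where edgeR called 1.93% of all genes, and 6 of 9 members had an unadjusted p below 0.05. The same number passed the adjusted p at any fold, all lower in FR1, and 18.5% of all genes passed in that direction. NFKB2 was lower in FR1 by 0.83 ± 0.09 on the log2 scale (ratio 0.564, adjusted p = 5.59e-06, edgeR), BIRC3 by 0.75 ± 0.12 (0.596, 0.000139) and RELB by 0.70 ± 0.16 (0.615, 0.00185). TNFAIP3 was lower by 0.43 ± 0.12 (0.741, 0.0187), NFKBIA by 0.30 ± 0.07 (0.810, 0.0021) and TRAF1 by 0.27 ± 0.07 (0.832, 0.00889). In all 6, every FR1 library was below every FR2 library, so TNFAIP3, the member lower in both groups than in hnCD16, was lowest in FR1. NFKB1 differed by 0.00 (95% interval -0.14 to 0.14), RELA by -0.11 (-0.22 to 0.01) and REL by 0.11 (-0.13 to 0.34). The median of the members was -0.30, and that of all genes 0.00.

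**Figure D3:**
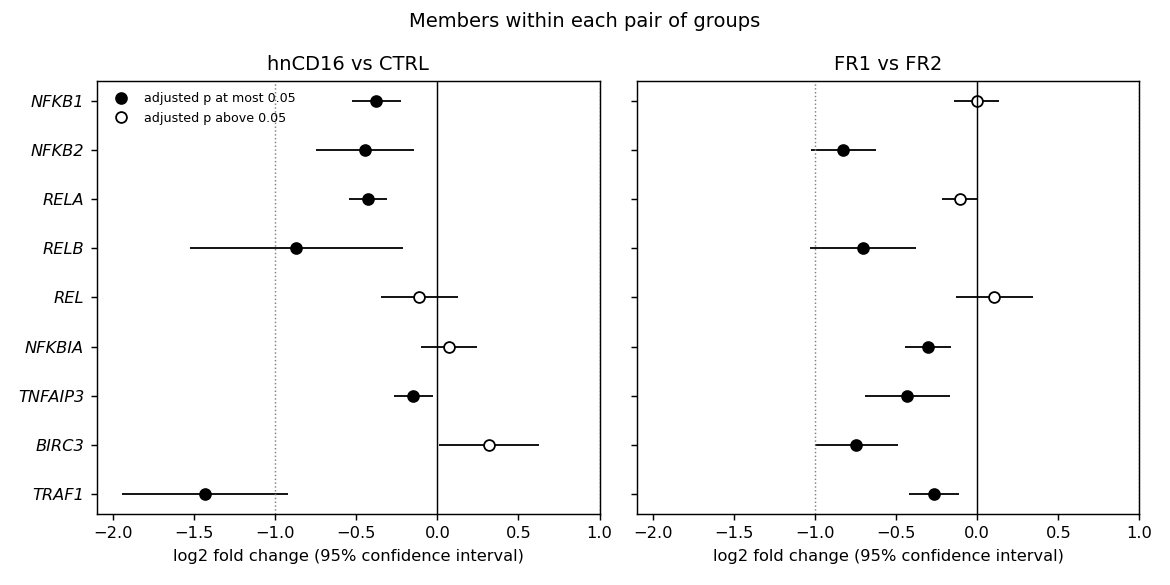
Log2 fold change with 95% confidence interval of each member in hnCD16 against CTRL (left) and in FR1 against FR2 (right). Filled points have an adjusted p of at most 0.05 by edgeR, and dotted lines mark the fold threshold of 1. TRAF1 at -1.43 is the point beyond the line, and 6 members on each side are filled, all below 0.

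The transcript table divided the members further, in most cases with a spread too wide to read. NFKBIA had 1 transcript. NM_001165 took 93.0 ± 2.92% of BIRC3 TPM in CTRL, 89.3 ± 5.62% in hnCD16, 99.0 ± 1.70% with FR1 and 97.4 ± 2.25% with FR2, and NM_021975 took 87.5 to 90.5% of RELA TPM on average in each group. All TRAF1 TPM in CTRL was assigned to NM_001190945, while NM_005658 took 92.0 ± 13.9% in FR1 and 70.9 ± 42.2% in FR2. In FR2 that transcript ranged from 1.92 to 9.38 TPM between libraries, and CTRL rested on 21 to 28 counts for the gene. For NFKB1, NFKB2, RELB and REL, the share of the leading transcript varied between libraries with SDs of up to 52.1 percentage points, and their shares are not compared here. In TNFAIP3 some shares differed between the pairs of groups by more than their own SDs. XM_011536096 took 21.7 ± 1.74% of its TPM in CTRL and 26.8 ± 4.37% in hnCD16, and was at 0 in every fusion receptor library. NM_006290 took 18.5 ± 3.14% (CTRL), 7.84 ± 6.92% (hnCD16), 61.4 ± 12.98% (FR1) and 30.4 ± 26.4% (FR2). Its spread in FR2 covered the CTRL share, so it did not separate the pairs. The gene rested on 46.2 to 72.1 counts in the fusion receptor libraries, and no test of these shares was run.

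The genes whose pattern over the 4 group means was most like that of each member were found by the distance between centred log2 CPM profiles, among 12339 genes with a mean of at least 1 CPM. TRAF1 had the fewest close neighbours, 8 genes within a distance of 0.5, of which LBH (0.133) and PPFIA4 (0.216) were nearest. RELB had 56 within that distance, among them SPARCL1 (0.181), and NFKB2 had 114, led by TSPAN14 (0.118) and MAST3 (0.151). TNFAIP3 had 105, led by ZNF300 (0.116) and UBE2E2 (0.124), and BIRC3 127, led by GLI1 (0.169) and RASGEF1B (0.170). NFKBIA had 689, with CLIC2 (0.0436) and POLR3GL (0.068) nearest. NFKB1 had 1817, with GCC1 (0.0443) and GNAI2 (0.0453) nearest. RELA had 1781, with SLC17A9 (0.0133) and GATAD2B (0.036) nearest. REL had 3998, with EPG5 (0.0204) and ALOX12 (0.0256) nearest.

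Other genes of the pathway were taken from a list of 80 by role, of which 72 were tested. In FR1 against hnCD16, 23 were called higher and 13 lower (50% of the list, with 38.3% of all genes as background), and in FR2 24 higher and 12 lower (50%, with 39.5% of all genes). The median log2 fold change of the list was 0.45 and 0.51, also with genes of a group at or under 3 counts set at their bound. Against CTRL, 21 were higher and 12 lower in FR1 (45.8% of the list, with 38% of all genes as background), and 25 and 12 in FR2 (51.4%, with 38.2% of all genes). In hnCD16 against CTRL 1 was higher (CCND2) and 1 lower (IL2RA), 2.78% of the list where 0.527% of all genes were called. Both were low in these groups. CCND2 had means of 0.449 CPM in hnCD16 and 0.168 in CTRL, and IL2RA had 4 to 6 and 9 to 16 counts. With so few genes called, this share is no result about the list. In FR1 against FR2 3 were higher (LTA, CCL3 and CCL4) and 1 lower (IL2RA), 5.56% of the list where 1.93% of all genes were called. LTA was low in both groups, with means of 0.558 CPM in FR1 and 0.189 in FR2, and CCL4 had 8.25 and 0.641. CCL3 had 61.9 and 5.47 CPM, and IL2RA 82.5 and 181. This share also rests on few genes and is no result about the list. For each role, the 2 called genes with the largest fold change are given. CCND2, IL2RA, LTA, CCL4, MAP3K14, CYLD, IKBKG, TRAF6 and TNFRSF4 fall outside this rule and were named after their values were seen.

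**Figure D4:**
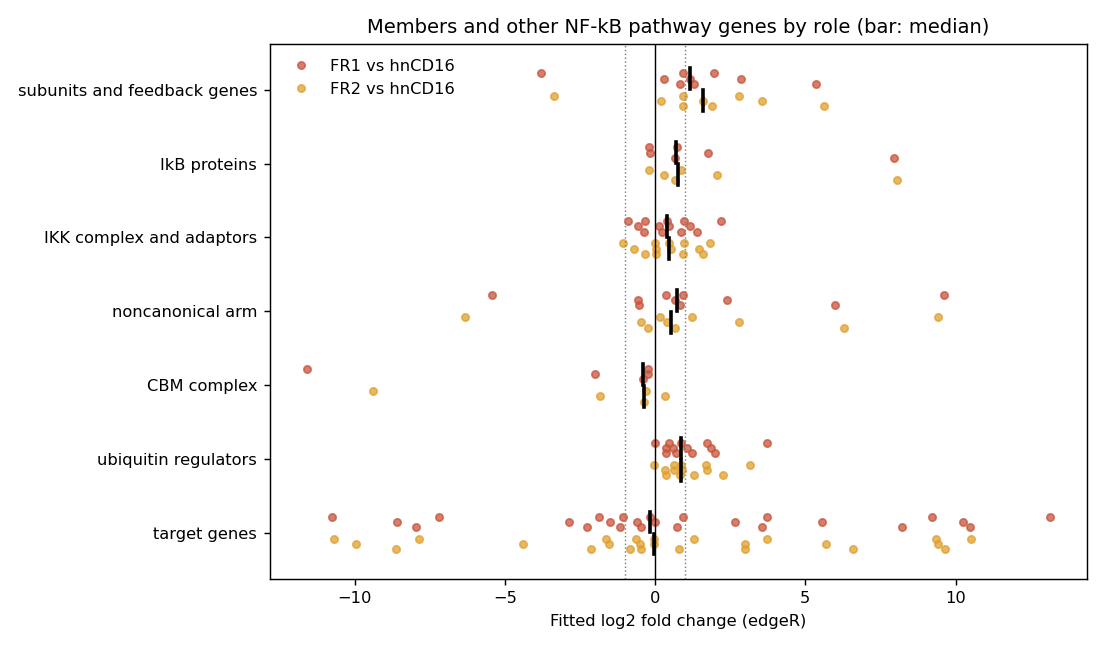
Fitted log2 fold change of the members and of 72 other pathway genes by role, in FR1 (red) and FR2 (orange) against hnCD16, with a black bar at the median and dotted lines at the fold threshold of 1. The members' medians are 1.16 and 1.60. Some points far from 0 belong to genes with 3 or fewer counts in a group, whose fitted value depends on the prior count.

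Of 6 IκB family genes, 2 rose in both fusion receptor groups against hnCD16 and 4 were not called. Over all genes, 18.7% (FR1) and 19.6% (FR2) were called higher, and with 6 genes this count is no result about the list. BCL3, a nuclear IκB protein that binds p50 and p52 dimers, had 0.519 ± 0.160 CPM in CTRL, 0.431 ± 0.057 in hnCD16, 107 ± 7.37 with FR1 and 116 ± 6.84 with FR2. It was higher by 7.94 ± 0.13 on the log2 scale in FR1 (adjusted p = 2.99e-19, edgeR) and 8.05 ± 0.12 in FR2. From 4.20 ± 0.44 CPM in hnCD16, NFKBIZ, which encodes another nuclear IκB, rose to 14.2 ± 0.36 (FR1) and 17.4 ± 0.53 (FR2). Of 13 genes of the IKK complex and its adaptors, 3 rose in both groups, TBK1, TRADD and IKBKG, and TRAF6 was called lower in FR2. This share of 3 in 13 was near the 18.7% (FR1) and 19.6% (FR2) of all genes called higher, and is no result about the list. TBK1, an IKK-related kinase, had 48.2 ± 7.21 CPM in hnCD16, 221 ± 1.64 with FR1 and 172 ± 7.67 with FR2, and TRADD, an adaptor of TNF receptor 1, had 5.96 ± 0.41, 15.6 ± 1.39 and 18.1 ± 0.70 CPM. IKBKG, the regulatory subunit NEMO, had mean levels of 17.1, 38.1 and 47.4 CPM, and its value is uncertain because a near-identical pseudogene can share its reads. TRAF6, a ubiquitin ligase upstream of IKK, had 42.1, 22.4 and 20.2 CPM.

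Of 10 tested genes of the noncanonical arm and its receptors, 3 were higher and 1 lower in FR1 against hnCD16, and 4 and 1 in FR2. Over all genes, 18.7% were called higher and 19.6% lower in FR1, and 19.6% and 19.8% in FR2. With 10 genes tested, these counts are no result about the list. TNFRSF8, which encodes the receptor CD30, ranged from 5 to 7 counts in CTRL, from 3 to 10 in hnCD16, from 4325 to 4736 in FR1 and from 3813 to 4168 in FR2. The log2 fold change against hnCD16 was 9.61 ± 0.12 (adjusted p = 2.63e-20, edgeR) in FR1 and 9.43 ± 0.12 (3.26e-20) in FR2. TNFRSF1B, the gene of TNF receptor 2, had 1.38 ± 0.16 CPM in hnCD16 and rose to 89.0 ± 3.80 (FR1) and 110.0 ± 2.25 (FR2). MAP3K14, the gene of NIK, rose from 7.20 ± 0.34 CPM to 38.0 ± 2.31 and 49.4 ± 0.22, and its difference between FR1 and FR2 was -0.38 ± 0.06 (adjusted p = 0.000132, edgeR). TNFRSF4, the gene of OX40, was the gene called lower, with means of 3.57 CPM in hnCD16, 0.0769 with FR1 and 0.0377 with FR2.

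Of the CARD-BCL10-MALT1 (CBM) complex and the kinases that start it, 5 of 6 listed genes were tested, and 2 fell in both groups. Over all genes, 19.6% (FR1) and 19.8% (FR2) were called lower, and with 5 genes tested this count is no result about the list. PRKCB, the gene of protein kinase Cβ, had 1438 to 1538 counts in hnCD16, 1847 to 1908 in CTRL and 0 to 2 in FR1 and FR2. With a floor of 3 counts per library, it was at least 462-fold lower in FR1 and at least 471-fold lower in FR2 than in hnCD16. PRKCQ, the gene of protein kinase Cθ, had 63.2 ± 2.29 CPM in hnCD16 and fell to 15.6 ± 0.73 (FR1) and 17.6 ± 1.24 (FR2). Of 13 ubiquitin regulators, 6 rose in FR1 and 5 rose in FR2, where 18.7% and 19.6% of all genes were called higher. TNIP3, an A20-binding protein, rose from 0.466 ± 0.272 CPM in hnCD16 to 6.28 ± 0.63 and 4.26 ± 0.13, and TNIP2, another, from 19.1 ± 1.42 CPM to 75.9 ± 4.55 and 91.5 ± 1.79. CYLD, a deubiquitinase that also restrains the pathway, rose from 25.1 ± 1.23 CPM to 83.4 ± 1.77 (FR1) and 81.0 ± 2.42 (FR2).

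Of 25 tested genes known as NF-κB targets, 9 rose and 10 fell in FR1 against hnCD16, and 10 rose and 8 fell in FR2. Over all genes, 18.7% were called higher and 19.6% lower in FR1, and 19.6% and 19.8% in FR2. The median log2 fold change of these targets was -0.18 and -0.04. CCL3, a chemokine gene with near-identical copies whose reads may be shared, had 0 counts in hnCD16, 0 to 1 in CTRL, 1001 to 1118 in FR1 and 80 to 115 in FR2, which put FR1 at least 383-fold and FR2 at least 33.8-fold above the floor of 3 counts per hnCD16 library. CD44, the gene of an adhesion receptor, ranged from 800 to 850 counts in hnCD16, against 0 to 2 in the fusion receptor libraries, at least 257-fold lower in FR1 and at least 261-fold lower in FR2.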

How the data were processed

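RNA-seq values of 12 YT cell libraries were taken from the gene and transcript tables. Per the study's methods and the submitters' processing notes, the authors depleted ribosomal RNA (the labels also name oligo(dT) beads), mapped reads to GRCh38.p13 with HISAT2 2.1.0 and quantified them with RSEM 1.3.1 (Bowtie2 2.3.4.3 is also listed). The deposited expected counts are RSEM estimates without normalization and were rounded to whole numbers for edgeR. The deposited TPM values, computed by the authors, were used for levels between genes. The counts of REL, TNFAIP3 and BIRC3 were not whole, since RSEM divides reads that match several places. Strand use in counting is not given in the sources used here. RELA, TNFAIP3 and BIRC3 overlap antisense genes and REL a same-strand non-coding gene without rows in the table, so reads of such pairs cannot be told apart.

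edgeR 4.0.16 (R 4.3.3; quasi-likelihood, TMM, all 4 groups in one fit, filterByExpr) tested 13657 genes, with Benjamini-Hochberg adjustment. Calls follow the thresholds of the authors' own analysis. All 9 members passed the filter on low counts. Alternatives were DESeq2 1.42.0, RLE scaling, limma 3.58.1 with a pseudocount of 1 or 0.1 added to TPM before log2, library size alone, other filters, the 2 groups compared alone, no fold threshold, a replicate block and leaving out each library. On counts simulated for FR1 against hnCD16, 200 of 200 genes changed by 2 on the log2 scale were recovered, and 0 unchanged genes were called among 13419 tested. The changed genes were few, well covered and balanced in direction, and all genes had the same spread. The simulation therefore does not test genes at low counts, or the scaling where 38.3% of genes are called. Precision follows the counts: RELB and TRAF1 rest on 8 to 28 counts in CTRL and hnCD16. Members, gene lists and tests were chosen with earlier results of these data known. Named were every member, the 2 called genes of each role with the largest change in FR1 against hnCD16 and a mean of at least 1 CPM, and the 2 genes nearest to each member. A few items that these rules name are not reported here. Symbols and gene identifiers are those of the table. Other columns, such as FPKM and the authors' comparisons, were not used. Gene coordinates are from GENCODE and promoter windows from RefSeq.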

Additional observations from a re-analysis of the deposited data

How the results depend on the processing

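The number of members called in FR1 or FR2 against hnCD16 or CTRL was 6. It stayed within 1.5 times that number under every alternative run, a wide band for 9 members. Against hnCD16 it was 5 in FR1 with limma on log2(TPM + 1) and 7 in FR2 without the second FR2 library. A filter of at least 10 counts in every library called 4 of 7 members in both. No fold threshold gave 9 in FR1 and 8 in FR2. In hnCD16 against CTRL, where 1 member was called, limma on log2(TPM + 1) called 0, a filter of at least 10 counts in every library called 0 of the 7 members left (TRAF1 and RELB were removed by it), no fold threshold gave 6, and leaving out 1 library gave 1 to 2. In FR1 against FR2, no fold threshold gave 6 instead of 0. Of the pathway list, the filter of at least 10 counts in every library left 56 genes tested and 20 called in each of FR1 and FR2 against hnCD16, instead of 36, because it removes genes low in one group. REL turned sign against CTRL. In FR1 it went from 0.19 to -0.02 with limma on log2(TPM + 1), -0.03 with log2(TPM + 0.1) and -0.01 with library size alone, and in FR2 from 0.08 to -0.11, -0.12 and -0.05, and to between -0.03 and 0.20 when 1 library was left out. NFKBIA in hnCD16 against CTRL went from 0.07 to -0.07, -0.08 and -0.04 under the same 3 settings, and NFKB1 in FR1 against FR2 lay between -0.07 and 0.04 when 1 library was left out. None of these was called, and the cause was not tested. NFKB1 in FR2 against hnCD16 reached 1.01 without the second FR2 library.

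With a replicate block, 6 members were called in each of the 4 comparisons across pairs, 1 in hnCD16 against CTRL and 0 in FR1 against FR2, as without it. At any fold, the block brought REL in FR2 against hnCD16 (adjusted p = 0.0406, edgeR), REL in FR1 against CTRL (0.0436) and BIRC3 in hnCD16 against CTRL (0.041) past the adjusted p. Same-numbered libraries did not deviate together in every pair (correlations of -0.07 to 0.17). In hnCD16 against CTRL all were positive (0.0623 to 0.171), as in FR2 against hnCD16 (0.0342 to 0.0726). In every other comparison the lowest was below 0 (-0.0719 to -0.0194). A batch shared by number was not tested. Library size alone shifted the median of all genes by -0.19 in FR1 and -0.13 in FR2 against CTRL, and limma on log2(TPM + 0.1) by -0.22 and -0.21. Subunit and transcript shares were not recomputed under other settings. Depth limits RELB and TRAF1 in CTRL and hnCD16.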
